A study of Homo sapiens with 8 samples.

Results

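The regions described here are NFYB peaks that were called in RH30 cells carrying a guide against the PAX3 promoter and in neither RH30 control. Peaks of the sgCCAAT2a and sgCCAAT2b lists that overlapped each other were merged into 2907 edited regions. Of these, 344 overlapped no peak of the sgCtrl1 list and none of the sgCtrl2 list, and they are called edited-only regions. They hold 230 of 2451 sgCCAAT2a peaks (9.38%) and 219 of 2558 sgCCAAT2b peaks (8.56%), and they make up 11.8% of the edited regions. The regions were chosen by the peak calls of these 4 RH30 lists, so their number and their absence from the controls are a description and were not tested.

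The factor NF-Y, built from the subunits NFYA, NFYB and NFYC, recognises the CCAAT pentamer, mostly in promoters just upstream of the transcription start. NFYB and NFYC form a histone-like pair, and NFYA makes the contact with the pentamer. NF-Y is known for its place at genes of the cell cycle, of sterol synthesis and of protein folding. CUT&RUN maps such a factor by tethering a nuclease to an antibody in intact nuclei and sequencing the DNA that is cut free.

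RH30 and RH4 are established rhabdomyosarcoma lines with the PAX3-FOXO1 fusion gene. All RH30 cells carried an inducible cytosine base editor, received 1 guide RNA, were selected with blasticidin and were collected on day 8 after rapamycin had switched the editor on. The controls, which also carried the editor and received rapamycin, had the guides sgCtrl1 or sgCtrl2; the cells called edited here had sgCCAAT2a or sgCCAAT2b, aimed at a CCAAT motif of the endogenous PAX3 promoter. The extent of editing was not analysed here, and the labels do not say whether the cells were a pool or a clone. RH4 cells were untreated, with 1 NFYB and 1 NFYC library. The 2 IgG libraries were not analysed here. Each guide and antibody has 1 library, so no p-value between conditions was computed, and intervals below are exact Clopper-Pearson 95% intervals that cover only the counting of regions. RH4 stands in both the source and the cell line field of all 5 libraries with RH30 in their titles. The titles are followed here, and which line these libraries came from was not tested. Per the file headers, the edited libraries were the deepest, with 21.2 M and 28.2 M tags (M, 1000000) against 13.9 M and 10.5 M in sgCtrl1 and sgCtrl2. Fewer of their tags fell in peaks, 1.22% and 1.46% against 2.40% and 3.10%. Called peaks were 153 and 163 bp wide with sgCCAAT2a and sgCCAAT2b, and 189 and 197 bp wide with sgCtrl1 and sgCtrl2. How far depth and width set the edited-only regions was not tested.

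The sequences below show the DNA under 8 edited-only regions at gene starts, since the pentamer that NF-Y recognises can be read in them. Each runs 5′ to 3′ on the strand of the named gene and holds the part of the region that lies upstream of the RefSeq start (GRCh38.p14) and no more than 250 bp from it. The PDIA4 region reaches farther upstream, and the rest of it is not shown. CCAAT, and ATTGG for the same pentamer on the other strand, are in capitals. The 8 are examples that all hold the pentamer, and not every such region does. The RNF20 region (place 425, sgCCAAT2b) held neither form in the part read. CEBPG encodes a bZIP transcription factor, ATG2A a lipid transfer protein of autophagy, and BICD2 an adaptor of the dynein motor. These regions were in both edited lists with no control peak within 1000 bp.
CEBPG (chr19:33373590-33373708, plus strand): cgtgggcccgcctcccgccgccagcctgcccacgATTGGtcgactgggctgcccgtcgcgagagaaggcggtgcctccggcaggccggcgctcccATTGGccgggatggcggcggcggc
ATG2A (chr11:64917240-64917413, minus strand): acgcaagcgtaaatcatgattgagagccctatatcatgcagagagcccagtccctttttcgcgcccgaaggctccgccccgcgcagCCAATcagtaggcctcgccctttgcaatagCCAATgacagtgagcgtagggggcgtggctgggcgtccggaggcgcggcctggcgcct
BICD2 (chr9:92764908-92765073, minus strand): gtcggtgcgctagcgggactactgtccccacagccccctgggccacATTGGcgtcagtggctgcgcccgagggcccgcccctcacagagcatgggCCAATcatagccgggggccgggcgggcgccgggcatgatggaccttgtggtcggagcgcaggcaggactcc
The next 4 were each called in 1 edited list, far from any control peak. PDIA4 encodes a protein disulfide isomerase of the endoplasmic reticulum, ETF1 the release factor that ends translation, and ZNF775 a zinc finger protein.
SPRYD3 (chr12:53079391-53079515, minus strand): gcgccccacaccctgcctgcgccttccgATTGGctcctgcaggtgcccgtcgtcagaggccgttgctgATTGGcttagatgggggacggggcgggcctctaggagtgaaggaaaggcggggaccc
ETF1 (chr5:138543246-138543398, minus strand): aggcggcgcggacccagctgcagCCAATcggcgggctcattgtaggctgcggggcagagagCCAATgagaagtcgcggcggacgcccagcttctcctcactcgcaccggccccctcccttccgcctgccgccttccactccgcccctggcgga
ZNF775 (chr7:150379165-150379317, plus strand): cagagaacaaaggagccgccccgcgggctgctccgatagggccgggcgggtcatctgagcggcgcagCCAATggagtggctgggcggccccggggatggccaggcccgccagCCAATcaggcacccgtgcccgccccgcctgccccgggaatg
PDIA4 (chr7:149028644-149028740, minus strand): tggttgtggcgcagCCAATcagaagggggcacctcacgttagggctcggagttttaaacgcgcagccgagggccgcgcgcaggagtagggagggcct
The last lies between the histone genes H2BC4 and H2AC6, in both edited lists, with a control peak 11 bp away. It was chosen after its values were seen, as a case of a region that only just missed a control peak.
H2BC4 (chr6:26123934-26124096, minus strand): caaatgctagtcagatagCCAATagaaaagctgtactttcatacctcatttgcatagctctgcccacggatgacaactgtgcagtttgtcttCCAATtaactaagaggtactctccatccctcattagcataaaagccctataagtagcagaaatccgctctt

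The pentamer was common at the edited-only regions that reached a promoter. RefSeq promoter windows run from 250 bp upstream to 50 bp downstream of a start, and 66 of the 344 regions (19.2%, interval 15.2 to 23.8%) overlapped at least 1. Of the 83 windows under them, 70 (84.3%, 74.7 to 91.4%) held CCAAT or ATTGG, against 34.6% of all 34943 windows. More than 1 window can lie under a region and share its sequence, and the intervals for windows here treat windows as independent. Of the 83, 77 lay under no edited region over a control peak, and 64 of these (83.1%) held a pentamer. Windows under edited regions that did overlap a control peak held it in 94.2% of 1980 cases (93.1 to 95.2%). Windows under control regions with no edited peak held it in 55.9% of 1495 cases (53.4 to 58.5%). At least 2 pentamers were found in 59.0% of the 83 windows, 64.3% of the 1980, 16.9% of the 1495 and 10.8% of all windows. For regions in both edited lists, 30 of 32 windows held a pentamer (93.8%, 79.2 to 99.2%).

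Where a promoter window allowed it to be read, the nearest pentamer lay close to the region centre. In 60 edited-only regions at least 100 bp lay inside a promoter window, and 52 of these stretches (86.7%, 75.4 to 94.1%) held a pentamer. Such stretches held one in 1298 of 1369 edited regions over a control peak (94.8%, 93.5 to 95.9%). In control regions with no edited peak it was 573 of 1015 (56.45%, 53.3 to 59.5%). For the 52 edited-only regions the median distance from the region centre to the nearest pentamer was 12 bp, and it was within 50 bp in 47. For edited regions over a control peak the median was 13 bp, with 90.8% of 1298 within 50 bp, and for control regions with no edited peak it was 28 bp, with 74.2% of 573. The stretches had a median length of 163 bp for edited-only regions, and 165 and 197 bp for the other sets in that order. They held a median of 2, 2 and 1 pentamers. Shorter stretches and more pentamers bring the nearest one closer, so these distances are not directly comparable. How close randomly placed pentamers would lie was not tested. Both orientations occurred, with 48 CCAAT and 45 ATTGG on the gene strand. Region centres lay upstream of the nearest RefSeq start in 58 of 66 cases (87.9%), with a median of 86.5 bp upstream. For edited regions over a control peak it was 1393 of 1465 (95.1%), with a median of 90 bp upstream. Both sets were chosen by overlap with windows that reach 250 bp upstream and only 50 bp downstream. Centres mostly upstream are therefore largely set by that choice. A match is a description of the letters and does not show that NF-Y was bound through it.

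**Figure D1:**
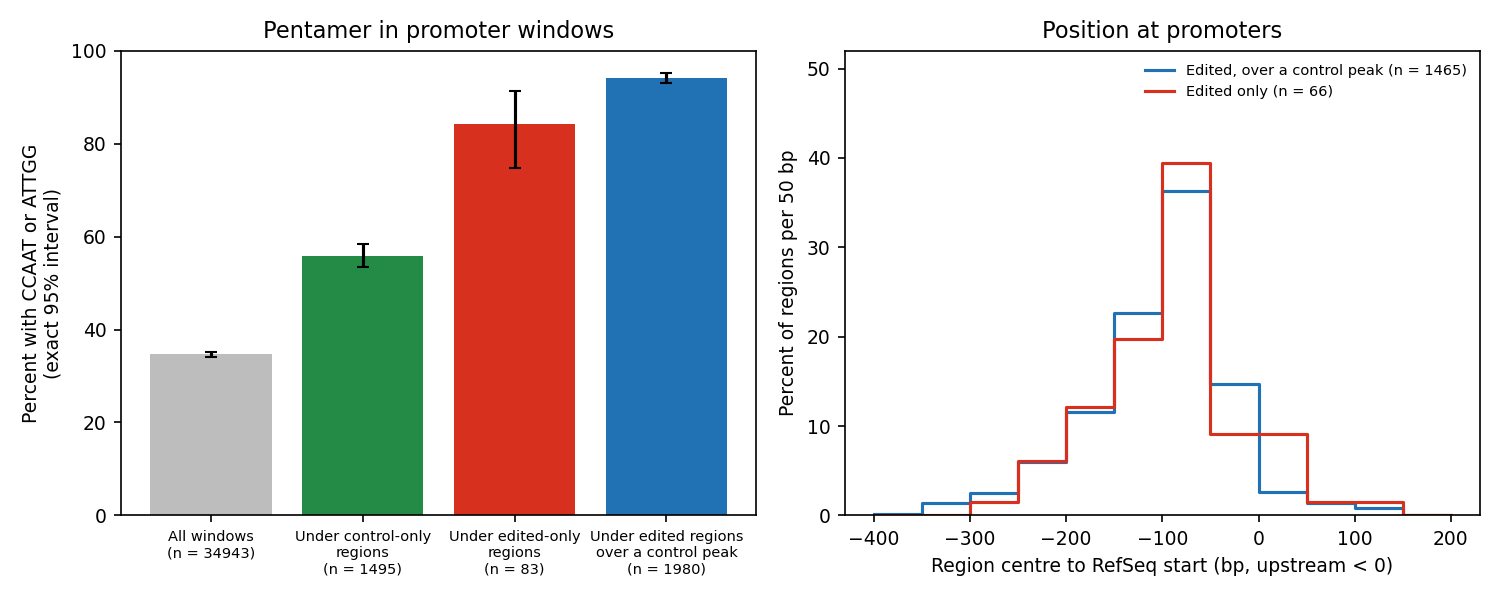
Left, percent of RefSeq promoter windows with CCAAT or ATTGG (bars, exact 95% intervals); right, percent of regions per 50 bp of distance from region centre to the nearest RefSeq start, upstream below 0. Windows under edited-only regions held the pentamer in 84.3% of cases. The centres of both sets, which were chosen by overlap with these windows, gathered between 50 and 100 bp upstream.

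By place in the genome the 344 regions fell into 4 groups. On unplaced or unlocalised contigs, pieces of sequence that the assembly could not position on a chromosome, lay 30 (8.7%, 5.96 to 12.2%). Near a centromere lay 69 (20.1%, 15.95 to 24.7%), defined as within 1 Mb of the longest stretch of the chromosome without a protein-coding gene. On chromosome 4 that stretch does not hold the centromere, so this measure misses regions near it. At a gene end, within 1000 bp of either end of a protein-coding gene, lay 74 (21.5%, 17.3 to 26.2%), and 171 (49.7%, 44.3 to 55.1%) lay elsewhere. Without sgCtrl1 the share near a centromere was 11.8% and that on contigs 5.51%. Of all 2907 edited regions, 2.27% lay on contigs, 6.67% near a centromere and 58.4% at a gene end. Edited regions over a control peak were placed otherwise, with 1.4% on contigs, 4.9% near a centromere and 63.3% at a gene end. None of these intervals overlapped that of the edited-only regions. Contigs and the surroundings of centromeres are known to consist largely of repeated sequence; repeats themselves were not analysed here.

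**Figure D2:**
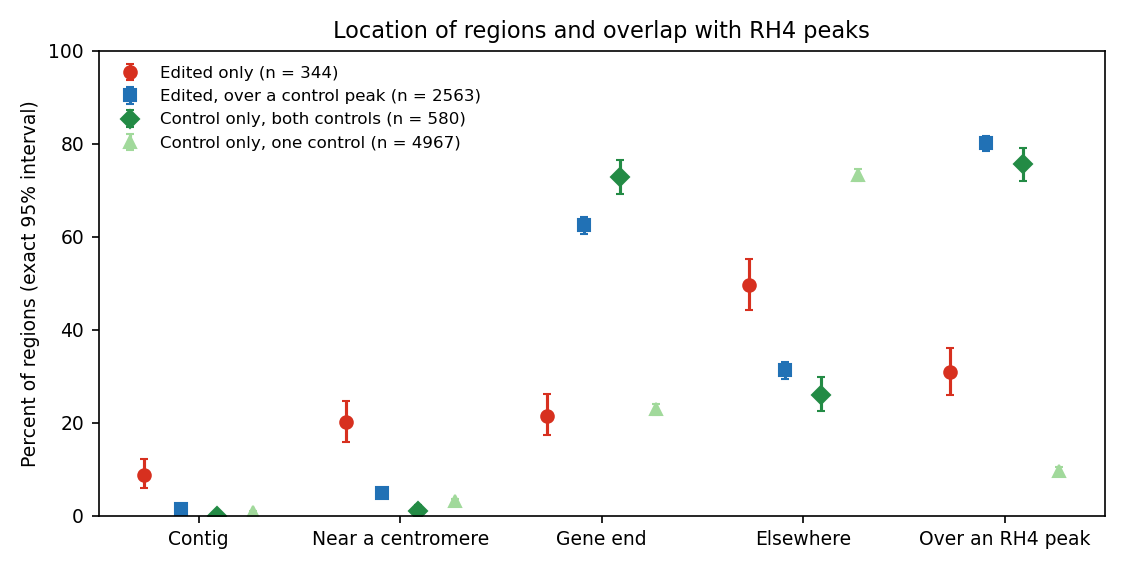
Percent of regions in each location group and over an RH4 NFYB or NFYC peak, with exact 95% intervals, for edited-only regions, edited regions over a control peak, and control regions without an edited peak found in both controls or in 1. Edited-only regions had the highest shares on contigs and near centromeres, 8.72% and 20.1%, and a share over RH4 peaks of 30.8%.

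The rule turned round gives another measure of these shares. Of 8118 merged control regions 5547 (68.3%) overlapped no edited peak, and 580 of these (10.5%) were in both control lists. Of the 580, 0 lay on contigs (which allows up to 0.634%), 1.03% near a centromere and 72.9% at a gene end, and 75.7% overlapped an RH4 peak. The 4967 found in 1 control lay at a gene end in 22.9% of cases, near a centromere in 3.10%, and over an RH4 peak in 9.58%.

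Whole lists differed in the same direction as shares but not as counts. Contigs held 0.696% of sgCtrl1 and 0.852% of sgCtrl2 peaks, against 2.04% of sgCCAAT2a and 1.80% of sgCCAAT2b peaks. Peaks near a centromere made up 2.83% and 3.47% of the controls and 6.73% and 6.22% of the edited lists. Both edited libraries thus stood above both controls in share. As counts, the peaks near a centromere numbered 114, 232, 165 and 159 in the same order, and those on contigs 28, 57, 50 and 46, so sgCtrl2 had the most. The edited lists are the shorter ones.

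Most edited-only regions were found with 1 guide only. In both edited lists were 105 (30.5%, 25.7 to 35.7%), with 125 in sgCCAAT2a alone and 114 in sgCCAAT2b alone. Of edited regions over a control peak 77.9% (76.3 to 79.5%) were in both lists, and of all edited regions 72.3%. The share in both lists was 36.7% of 30 on contigs, 39.1% of 69 near a centromere, 35.1% of 74 at a gene end and 24.0% of 171 elsewhere. These intervals overlapped one another.

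Edited-only peaks came late in the files, except at gene ends. The deposited files hold no peak heights; within a chromosome, the order of entries tracked the numbers in their names (Spearman rho, median over chromosomes, 0.961 in both edited lists), and the headers do not state that this is a rank. In sgCCAAT2a the median place was 2071 of 2451 for edited-only peaks and 1172 for the others, and in sgCCAAT2b 2261 of 2558 against 1211. With each list cut into 10 parts, the last part held 90 of 230 and 97 of 219 edited-only peaks. In it 36.6% of the sgCCAAT2a entries (30.6 to 42.9%) were edited-only, and 37.9% of the sgCCAAT2b entries (31.9 to 44.1%). In the first part these shares were 3.67% and 2.75%. Peaks at gene ends had median places of 757.5 and 1013, and those elsewhere 2281 and 2392. On contigs the medians were 1851 and 2157, and near a centromere 2179 and 2118.

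**Figure D3:**
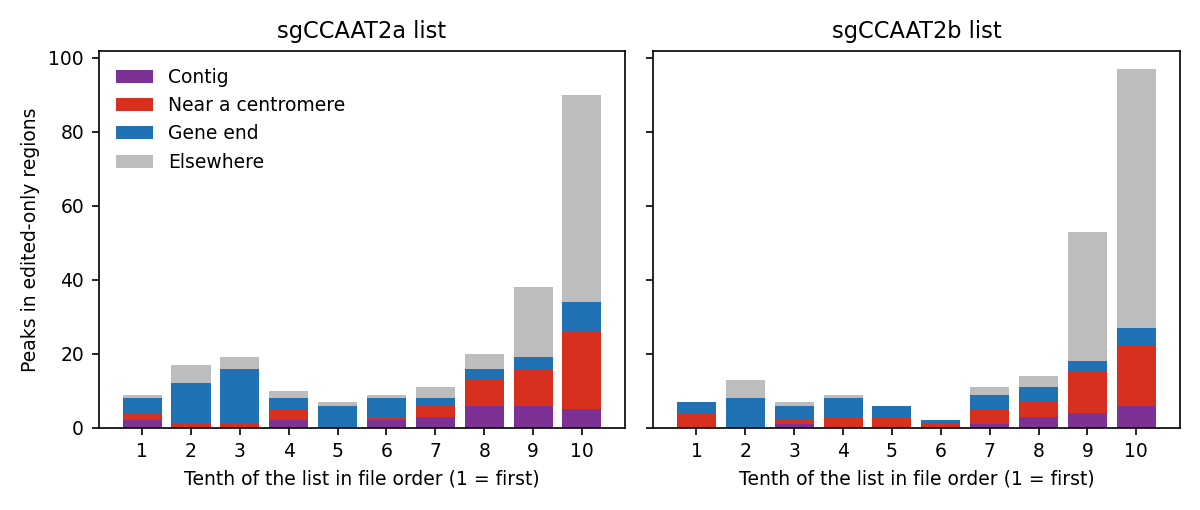
Number of peaks in edited-only regions in each of 10 parts of the edited lists in file order, coloured by location group. The last part holds 90 peaks with sgCCAAT2a and 97 with sgCCAAT2b, of which 56 and 70 lie elsewhere and 8 and 5 at gene ends.

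Some edited-only regions only just missed a control peak. The nearest control peak lay within 100 bp of 30 regions and within 1000 bp of 87 (25.3%, 20.8 to 30.2%). It was farther but within 10000 bp for 65, then within 100000 bp for 117 and beyond that for 71, and 4 regions lay on contigs with no control peak. Of the 87, 37 had a peak of both controls within 1000 bp. The share within 1000 bp was 53.3% of regions on contigs (34.3 to 71.7%), 34.8% near a centromere, 32.4% at gene ends and 13.5% elsewhere (8.72 to 19.5%). At the limit of the rule, regions on chromosomes 1 and 12 touched a control peak with a gap of 0 bp, and the CTPS1 region was 3 bp away. The edited regions just outside the rule overlapped a control peak by 2, 6 and 9 bp.

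**Figure D4:**
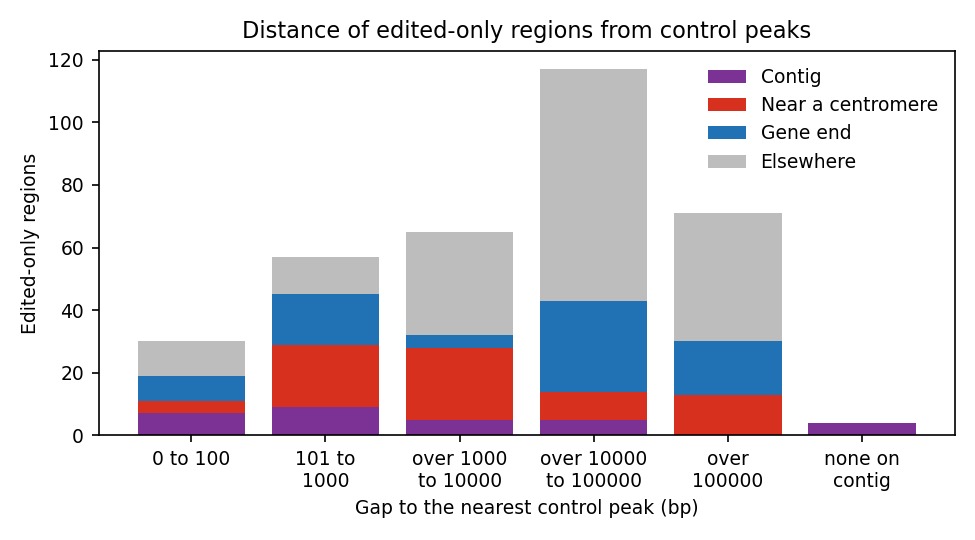
Edited-only regions by the distance in bp to the nearest peak of either control, coloured by location group. The fullest class, over 10000 and up to 100000 bp, holds 117 regions, and 30 lie within 100 bp of a control peak.

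Some of the edited-only regions lay in short chains. A chain was taken as 3 or more edited-only regions each at most 100 kb from the next, and 13 chains held 66 regions (19.2%). Chains built in the same way from edited regions over a control peak held 26.5% of those, from all edited regions 30.0%, and from control regions without an edited peak 24.6%, all above the share of the edited-only regions. These sets are far larger, with 2563, 2907 and 5547 regions against 344. Chains form more readily in a larger set, so the shares do not rank how clustered the sets are. On contigs 60.0% of edited-only regions (40.6 to 77.3%) and 61.1% of edited regions over a control peak (43.5 to 76.9%) were in chains. Near a centromere these shares were 63.8% (51.3 to 75.0%) and 48.8% (39.8 to 57.9%), so the intervals overlapped in both places. Of the 13, 9 lay near a centromere by the measure above, 3 on unlocalised contigs and 1 on chromosome 4. The span of no chain touched a protein-coding gene. The measure near a centromere rests on gene-free stretches, and genes were read on primary chromosomes only. The absence of genes is therefore largely set by these definitions. The chromosome 4 chain, at positions 49098511 to 49155002, lay outside the longest gene-free stretch of that chromosome, which does not hold the centromere. Its 4 regions are therefore counted as elsewhere, and their distance from the centromere was not measured. Chains are built from edited-only regions, so the peak counts given next are a description.

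Chromosome 1 had 9 regions in 79713 bp (143184640 to 143264352), 6 of them in both edited lists. The span held 19 sgCCAAT2a and 17 sgCCAAT2b peaks, with 5 for sgCtrl1 and 12 for sgCtrl2, so all 4 libraries had signal there. Chromosome 10 had 17 regions near its centromere in 27 edited regions, in chains of 9, 5 and 3. The chain of 9 (42070837 to 42101753) held 6 peaks each of sgCtrl2, sgCCAAT2a and sgCCAAT2b and 0 of sgCtrl1. The chain of 3 filled only 1122 bp (38528259 to 38529380) and held 0 control peaks, though a control peak lay 4 bp beyond it. Chromosome 16 had 5 regions in 34815 bp (34575975 to 34610789), with 10 and 9 edited peaks against 1 for sgCtrl1 and 8 for sgCtrl2. Here lay the highest placed edited-only peak of the sgCCAAT2b list, place 18, at 34587990 to 34588152 and 8 bp from a control peak. The region at 34592683 to 34592902 was at place 121 with sgCCAAT2a and 78 with sgCCAAT2b. Over all 13 spans the lists held 26 sgCtrl1, 53 sgCtrl2, 90 sgCCAAT2a and 79 sgCCAAT2b peaks, and 0 RH4 peaks.

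Near its centromere chromosome 17 had 11 edited-only regions among 36 edited regions, and 3 of the 11 were in a chain. Over all chromosomes, 69 of 194 edited regions near a centromere were edited-only. The region at 26885691 to 26885865 stood at places 57 and 73 of the 2 edited lists, 177 bp from a control peak. That at 22521323 to 22521485 stood at place 34 of the sgCCAAT2b list, was absent from sgCCAAT2a, and lay 157952 bp from any control peak. Near their centromeres, chromosome 20 had 9 edited-only regions among 21 edited regions and the Y chromosome 7 among 11. On the whole Y chromosome 9 of 14 edited regions were edited-only (64.3%), where the lists held 7 sgCtrl1, 5 sgCtrl2, 11 sgCCAAT2a and 10 sgCCAAT2b peaks.

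**Figure D5:**
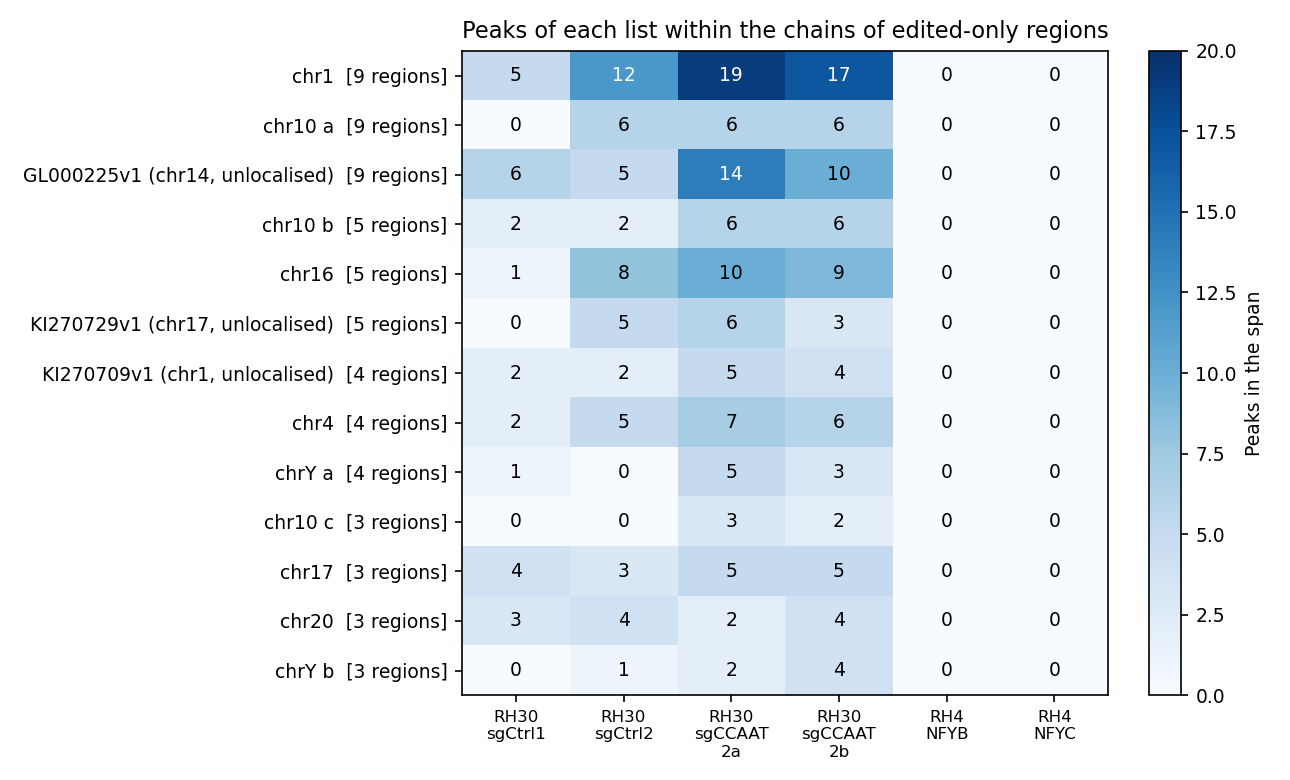
Peaks of each of the 6 lists within the span of each chain of edited-only regions, shaded by number; letters tell apart chains of 1 chromosome, in order of size. The edited lists hold 90 and 79 peaks in all, sgCtrl1 26, sgCtrl2 53, and the RH4 lists 0.

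Among the contigs, GL000225v1 of chromosome 14 had the most edited-only regions, 9 of its 15 edited regions, 6 of them in both edited lists. It held 14 and 10 edited peaks and 7 and 5 peaks of sgCtrl1 and sgCtrl2. KI270729v1 of chromosome 17 had 6 among 10 edited regions, with 7 and 6 edited peaks, 0 of sgCtrl1 and 11 of sgCtrl2. KI270709v1 of chromosome 1 had 4 among 8 edited regions. Over all contigs, 30 of 66 edited regions were edited-only. GL000224v1, which has no chromosome assigned, had 2 regions, both in both edited lists, and no control peak; KI270330v1 and KI270465v1 had 1 peak each, from 1 edited library. On KI270438v1 the highest placed edited-only peak of sgCCAAT2a (place 28) lay 26 bp from a control peak, and the next there (place 116) 52 bp from one.

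RH4 lists were not used by the rule, and 106 edited-only regions (30.8%, 26.0 to 36.0%) overlapped an RH4 peak, against 80.1% (78.5 to 81.6%) of edited regions over a control peak and 74.2% of all edited regions. Among the 2563 edited regions over a control peak, RH4 NFYC was found at 78.4%, NFYB at 75% and both at 73.4%. Of the edited-only regions, NFYC was found at 104 (30.2%) and NFYB at 79 (23%), with both at 77 (22.4%) and NFYB alone at 2. These 2, at IGBP1 and on chromosome 3 at 71641767 to 71641919, were named after their values were seen. By location, 64 of 74 at gene ends (86.5%, 76.6 to 93.3%) overlapped an RH4 peak, 41 of 171 elsewhere (24.0%, 17.8 to 31.1%), 1 of 69 near a centromere (1.4%, 0.0367 to 7.81%) and 0 of 30 on contigs. For edited regions over a control peak it was 95.4% of 1600 at gene ends (94.3 to 96.4%) and 62.0% of 802 elsewhere (58.5 to 65.3%). Near a centromere it was 28 of 125 (22.4%, 15.4 to 30.7%) and on contigs 0 of 36. Except on contigs, the edited-only share was lower and the intervals did not overlap. The RH4 lists have few peaks near centromeres or on contigs. Near a centromere lay 39 NFYB and 51 NFYC peaks, off the primary chromosomes 1 and 2, and on the Y chromosome 0. How far this sets the shares above was not tested. Entries of the RH4 lists carry a second set of coordinates, and whether this bears on their near absence from contigs was not tested.

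RH4 NFYB peaks were wide (median 411 bp) and RH4 NFYC peaks were not (190.5 bp), and 1 RH4 peak can reach both an edited-only region and a nearby control peak. This was so for 15 of the 106. For the other 91 the RH4 peak overlapped no RH30 control peak, and 52 of them lay at gene ends and 29 in both edited lists.

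Gene ends gave 90 protein-coding genes with an edited-only region, 0.449% of 20037. A few genes of the table, such as BAGE5, appear to carry positions on unlocalised scaffolds under a chromosome name, and their effect on the gene end counts was not tested. The region lay at a 5′ end in 65 of 74 cases, at a 3′ end alone in 3 (BORCS6, TNFSF9 and TAF11L5, named after their values were seen) and at ends without a listed strand in 6. The centre was within 200 bp of the gene end in 48 of 74 (64.9%), against 76.5% of 1623 edited regions over a control peak. Of the 90 genes, 34 also had a control peak at an end and 56 had none.

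Of the 26 edited-only regions that lay in both edited lists and at a gene end, 17 had no control peak within 1000 bp, and 15 of these overlapped an RH4 peak. The other two were at GPR85 and TAF11L5, named after their values were seen. The highest placed lay at NARF, whose product binds prelamin A (chromosome 17, 82458487 to 82458663, places 146 and 158 of the sgCCAAT2a and sgCCAAT2b lists). The nearest control peak was 7607 bp away. DHCR7, the last enzyme of cholesterol synthesis, had one at places 319 and 437 (chromosome 11, 71448399 to 71448573), 35437 bp from a control peak. TNRC6C, a scaffold of miRNA-guided silencing, had one at places 469 and 383, 34450 bp from a control peak. CEBPG followed at places 687 and 562, 196220 bp away, and BICD2 at 787 and 764, 205368 bp away. RBM27, an RNA-binding protein, stood at places 456 and 534 and DNAJC27 at 541 and 792. ATG2A with its neighbour PPP2R5B, a regulatory subunit of phosphatase 2A, stood at 581 and 851, and TNFAIP8L1 at 721 and 965. Each of these 9 regions overlapped an RH4 NFYB peak that reached no RH30 control peak.

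The remaining 9 regions had a control peak close by. KHSRP, an RNA-binding protein of mRNA decay, had the highest placed edited-only region of any gene (places 41 and 53, chromosome 19, 6425195 to 6425378). Control peaks lay 71 bp (sgCtrl1) and 76 bp (sgCtrl2) from it. G3BP1, a core protein of stress granules, had one at places 177 and 119, with control peaks 23 and 40 bp away. At ENSA, an inhibitor of phosphatase 2A in mitosis, the gaps were 224 and 207 bp, and at MLEC, a lectin of the endoplasmic reticulum, 351 and 354 bp. At TTC9C with HNRNPUL2 they were 225 and 191 bp, and at SUCO 58 and 155 bp. At these 6, the RH4 peak under the edited-only region also reached a control peak, and both controls had a peak within 1000 bp.

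With 1 edited guide, the highest placed regions at gene ends over an RH4 peak lay at SPRYD3 (place 217, sgCCAAT2a), PDIA4 (place 280, sgCCAAT2b), ETF1 (place 313, sgCCAAT2a) and FAM83D, a protein of the mitotic spindle (place 337, sgCCAAT2b). Their nearest control peaks were 72969, 144175, 81600 and 114708 bp away. ZNF775 (place 358), LCN12 (386) and COPS3, a subunit of the COP9 signalosome (400), followed with sgCCAAT2a. RNF20, a ubiquitin ligase of histone H2B, with PGAP4 (425) and ZKSCAN5 (451) followed with sgCCAAT2b; at ZKSCAN5 an sgCtrl1 peak lay 71 bp away. Each of them was called with 1 of 2 guides aimed at the same motif.

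Away from protein-coding gene ends, 24.1% of 802 edited regions over a control peak overlapped a RefSeq promoter window (21.1 to 27.2%). Of the 171 edited-only regions there, 16 did so (9.4%, 5.44 to 14.75%). The highest placed were at a start of PER2, a circadian repressor (place 189, sgCCAAT2a, 85009 bp from a control peak), and at MIRLET7A1HG, the host transcript of a let-7 miRNA (place 279, sgCCAAT2b, 360 bp from a control peak). Both overlapped RH4 NFYB peaks. A region inside FOSB, an AP-1 subunit (chromosome 19, 45469345 to 45469497), stood at place 256 with sgCCAAT2a. Inside a protein-coding gene lay 65 of the 171 (38.0%, 30.7 to 45.7%), against 46.4% of 802 edited regions over a control peak (42.9 to 49.9%). Of the 171, 103 were in 1 edited list and over no RH4 peak, against 113 of the 802.

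PAX3 and FOXO1 had no edited-only region. The nearest lay 0.544 Mb from PAX3 and 13.3 Mb from FOXO1. Among the gene lists, endoplasmic reticulum folding had 1 of 20 genes with an edited-only region (PDIA4) and cholesterol and fatty acid synthesis 1 of 20 (DHCR7). In these lists 17 and 13 genes had some edited region at an end. Cell cycle genes had 0 of 20, muscle genes 0 of 25, reported PAX3-FOXO1 targets 0 of 20 and genes around CDK4 on chromosome 12 0 of 19, beside 0.449% of all genes. Some edited region lay at an end of 15, 1, 0 and 4 genes of these lists in that order. The 0 of the PAX3-FOXO1 targets was therefore fixed in advance. Of all 20037 genes, 2013 had some edited region at an end, and 90 had an edited-only region. In lists of this size 0 allows shares far above that, so no list can be said to lack such regions.

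The number of edited-only regions rested on each library. Without sgCtrl1 it was 672 and without sgCtrl2 558, so each control alone removed many regions that the other did not. Without sgCCAAT2a it was 220 and without sgCCAAT2b 232. In the first 1225 and 1279 places of the 2 edited lists there were 77, of which 58.4% lay at gene ends and 79.2% overlapped an RH4 peak.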

How the data were processed

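Peak lists of 6 CUT&RUN libraries were used, each a group of 1 by its title. The values are peak starts and ends in bp (hg38 in the submitters' processing notes); the score column deposited by the authors is a constant of 1. HOMER findPeaks (factor style) was run on each RH30 library, per the file headers. A peak needed 4-fold the tags of the 10000 bp around it and 2-fold those of an input named only S3, at a Poisson p of 0.0001 against that input and with a clonal fold of 2. The input filter removed from 98.0% to 99.5% of putative peaks. Which program called the RH4 peaks is not stated in the labels or headers used here. The deposited differential tables hold entries over sgCtrl2 peaks, which the rule leaves out, and were not used, nor was the RH4 consensus list.

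Overlap meant at least 1 bp. Overlapping edited peaks were merged, touching ones were not. Genes and promoter sequences came from RefSeq tables of GRCh38.p14; of the gene table, protein-coding genes on primary chromosomes were used. Shares have exact Clopper-Pearson 95% intervals (SciPy 1.17.1, Python 3.11.15). Tested on simulated lists, 80 of 80 counts equalled those of bedtools 2.31.1.

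The regions, gene lists and naming rule were chosen with earlier results of these data known. Named were PAX3 and FOXO1, up to 15 regions by place in both edited lists and at a gene end, up to 15 at a gene end over an RH4 peak, the 10 of highest place in each edited list, the largest chains and contigs, and list genes. Alternatives were other overlaps, windows, margins and links, each library left out, and, chosen after seeing the data, gene-free stretches over RefSeq genes of any kind.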

Additional observations from a re-analysis of the deposited data

How the results depend on the processing

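Shares are percent of edited-only regions. Leaving out 1 library at a time gave from 220 to 672 regions. Shares then ran from 40.7 to 43.8% in both edited lists (controls left out; it was 30.5% with all libraries), 17.7 to 30.8% at a gene end, 30.0 to 44.3% over an RH4 peak, 11.8 to 23.3% near a centromere, 5.51 to 11.2% on contigs and 14.1 to 26.7% in chains. With the earlier part of each edited list (77 regions) the share at gene ends was 58.4%, over RH4 peaks 79.2%, on contigs 5.19% and in chains 9.09%. With a control peak within 1000 bp as the limit, 257 regions remained, 5.45% on contigs and 11.7% in chains, and 20 of 33 named regions were among them. With an overlap of 50% of both peaks there were 445, of which 26.7% lay at a gene end. With primary chromosomes only, 0% lay on contigs. In both edited lists within 1000 bp were 39.5%. A window of 3000 bp gave 26.7% at gene ends. Over RH4 peaks were 20.6% with 50% of both peaks and 23% for NFYB alone. In chains were 10.2% with links of 10 kb and 29.4% with links of 1 Mb. Near a centromere were 18.3 to 23.5% with other margins and 16.3% with gene-free stretches over genes of any kind. Some of these alternatives use fewer libraries or peaks, and the others change only the overlap, window, margin or link. The cause of the moves was not tested. The planned share of whole regions with CCAAT could not be run without a genome sequence. No paired analysis was possible because each guide has 1 library and the titles carry no replicate numbers. Peak heights were not in the lists, so calls just under the threshold in a control could not be told apart from absence.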
